A study of Homo sapiens with 4 samples.

Results

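VIM, SNAI1, LUM, CRISPLD2 and CREG1 are 5 genes of mesenchymal, matrix and secreted proteins, and they were followed here after depletion of SSRP1 in BE(2)C, an established cell line from a human neuroblastoma. The genes were found by symbol in the platform annotation of the arrays, with 1 probe set per gene (that of highest mean), and all 5 were measured among 14812 named genes. They were chosen with their response to SSRP1 siRNA already known, so that response is described below and not tested. The study held 4 samples, 2 given a control siRNA with no target and 2 given an siRNA directed at SSRP1. RNA was isolated 72 hours after transfection and measured on whole-transcript arrays (Affymetrix Human Gene 2.0 ST), 1 per sample. All 4 samples were of the same line, grown in DMEM with fetal calf serum and exposed to the same lipid transfection reagent, and no untransfected cells were compared. The labels name a single catalogue item for the SSRP1 siRNA, so effects of that reagent's sequence and effects of losing SSRP1 cannot be told apart. Nothing in the labels says that replicates were separate cultures, so all p-values cover the spread between these samples alone, which may be technical.

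SSRP1 is part of the histone chaperone FACT, which loosens and restores nucleosomes as polymerases pass. Neuroblastoma cells exist in an adrenergic state, which resembles sympathetic neurons, and a mesenchymal state, which resembles neural crest and stromal cells and is marked by vimentin. Among the 5 genes, VIM encodes the intermediate filament protein vimentin, and SNAI1 encodes a zinc finger repressor that binds E-box sequences in epithelial genes and drives epithelial to mesenchymal transition. LUM encodes lumican, a small leucine-rich proteoglycan that binds collagen fibrils, and CRISPLD2 encodes a secreted protein with a CAP domain and LCCL domains. CREG1 encodes a secreted glycoprotein that is taken up through the mannose 6-phosphate receptor and found in lysosomes.

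The RefSeq promoter table (GRCh38.p14) matched 3 of the 5 genes, VIM, CREG1 and CRISPLD2, which were all higher with SSRP1 siRNA. Their 250 bases before the annotated start are shown because they let the sequences upstream of genes with a like response be compared. Capitals mark 2 of the searched elements, the GC box GGGCGG and the CCAAT box, on either strand.
VIM: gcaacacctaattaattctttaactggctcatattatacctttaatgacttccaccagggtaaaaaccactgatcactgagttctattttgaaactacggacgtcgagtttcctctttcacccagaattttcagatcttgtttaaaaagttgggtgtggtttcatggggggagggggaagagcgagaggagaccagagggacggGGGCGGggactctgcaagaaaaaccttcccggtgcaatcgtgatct
CREG1: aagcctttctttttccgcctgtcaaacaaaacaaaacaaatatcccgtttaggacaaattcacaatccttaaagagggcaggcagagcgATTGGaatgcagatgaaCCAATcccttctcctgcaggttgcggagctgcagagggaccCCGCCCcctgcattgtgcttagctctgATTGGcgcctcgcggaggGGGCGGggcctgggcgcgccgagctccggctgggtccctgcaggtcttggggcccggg
CRISPLD2: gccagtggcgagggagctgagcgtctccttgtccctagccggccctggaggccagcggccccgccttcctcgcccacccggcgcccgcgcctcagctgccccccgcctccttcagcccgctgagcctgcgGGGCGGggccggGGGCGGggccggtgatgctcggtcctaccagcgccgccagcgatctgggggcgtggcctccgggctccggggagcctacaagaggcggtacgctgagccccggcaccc
The VIM sequence is chr10:17227991-17228240 on the plus strand, the CREG1 sequence chr1:167553763-167554012 on the minus strand and the CRISPLD2 sequence chr16:84819735-84819984 on the plus strand. The 3 windows differed in base composition, with a GC content of 46.0% for VIM, 58.8% for CREG1 and 77.6% for CRISPLD2, against a median of 58.0% over 27305 RefSeq promoters of the same length, 1 per gene. They held 8, 14 and 27 CpG dinucleotides in that order. A GC box was the 1 searched element found in all 3 windows, once in VIM and 2 times each in CREG1 and CRISPLD2, and 42.3% of all promoters held it. The CCAAT box was found 3 times in CREG1, between 161 and 72 bases before the start, and in neither of the other windows, and 33.0% of all promoters held it. The E-box CAGGTG to which SNAI1 binds, which 17.5% of all promoters held, the TATA box TATAAA (11.1%) and the AP-1 element TGANTCA (6.6%) were not found in these 3 windows on either strand. No searched element overlapped another. Expression alone was measured, so whether any factor was bound at these sequences was not tested.

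The arrays were alike as a whole. Median log2 values over all 46255 probe sets lay between 3.37 and 3.42, and Pearson correlations over probe sets were 0.993 between the control arrays, 0.991 between the SSRP1 siRNA arrays and 0.990 to 0.991 between arrays of different groups. With this number of arrays the precision of every value is limited. The siRNA target fell from 9.05 and 9.23 in the controls to 7.42 and 6.97 after SSRP1 siRNA, a log2 change of -1.95 ± 0.17 (SE, limma adjusted p = 0.0479), and the adjusted p was above 0.05 with the replicate block, with robust variances, over all probe sets and without any 1 array. Markers of neuroblastoma (9 of 10 measured, among them GATA3, HAND2, ISL1, DBH and STMN2) all had mean levels above the median of all genes, 4.64.

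VIM, the filament gene, was higher after SSRP1 siRNA. Its log2 value was 6.29 and 5.98 in the controls and 6.98 and 6.80 after SSRP1 siRNA. Both SSRP1 siRNA arrays lay above both control arrays, and the group means were 6.13 ± 0.22 and 6.89 ± 0.13 (SD, n = 2 each). The log2 difference was 0.76 ± 0.14 (SE), or 1.69-fold. Between single arrays of the 2 groups the difference ran from 0.51 to 1.0, against a gap of 0.31 between the control arrays.

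VIM was the 1 gene of the 5 with several probe sets, and its 3 probe sets did not disagree in direction. Probe set 16712272 read 5.84 and 5.44 with control siRNA and 6.40 and 6.34 with SSRP1 siRNA, a difference of 0.72. Probe set 16712274 read 5.87 and 5.18 against 6.69 and 6.45, a difference of 1.05. The groups were separate in each of the 3 probe sets. Which part or strand of the locus each of them measures is not given in the sources used here. By number the main probe set, 16702767, lies near those of ST8SIA6-AS1 (16702790) and STAM (16702800). The other 2 lie near those of CUBN (16712168) and TRDMT1 (16712244). They may therefore measure the other strand, and their values are not taken as repeat readings of VIM.

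SNAI1, the repressor, was the 1 gene of the 5 that was lower. It read 5.91 and 5.89 in the controls and 5.46 and 5.19 after SSRP1 siRNA. The control arrays were nearly equal, and both SSRP1 siRNA arrays lay below them. The means were 5.90 ± 0.02 and 5.32 ± 0.19 (SD, n = 2 each), a log2 difference of -0.58 ± 0.12 (SE), which is 0.67 of the control level. Differences between single arrays ran from -0.72 to -0.43. SNAI1 had the smallest difference in size of the 5 genes, and 2.43% of all genes had a larger one.

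LUM, the collagen-binding proteoglycan gene, read 7.64 and 6.91 with control siRNA and 8.59 and 8.35 with SSRP1 siRNA. The groups did not overlap, but the control arrays stood 0.73 apart, the widest gap within a group for any of the 5 genes. The means were 7.27 ± 0.52 and 8.47 ± 0.17 (SD, n = 2 each), a log2 difference of 1.20 ± 0.25 (SE), or 2.29-fold. The single-array differences ran from 0.71 to 1.68, so the size of the LUM difference was the least precise of the 5. Its residual SD was larger than that of 97.9% of all genes. Without control replicate 1 the difference was 1.56, and without control replicate 2 it was 0.83.

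CRISPLD2, the secreted CAP protein gene, had the largest difference of the 5. It read 5.43 and 5.20 in the controls and 6.83 and 6.69 after SSRP1 siRNA. Each group kept within 0.23, and the groups were far apart. The means were 5.31 ± 0.16 and 6.76 ± 0.10 (SD, n = 2 each), a log2 difference of 1.45 ± 0.12 (SE), or 2.73-fold. Single-array differences ran from 1.27 to 1.64, and 0.115% of all genes had a difference larger in size.

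CREG1, the lysosomal and secreted glycoprotein gene, read 6.74 and 6.51 with control siRNA and 7.99 and 7.64 with SSRP1 siRNA. Both SSRP1 siRNA arrays lay above both control arrays. The means were 6.63 ± 0.17 and 7.81 ± 0.25 (SD, n = 2 each), a log2 difference of 1.19 ± 0.16 (SE), or 2.27-fold. Single-array differences ran from 0.89 to 1.48. LUM and CREG1 stood side by side among all genes, at ranks 30 and 31 from the highest difference, with CRISPLD2 at rank 15 and VIM at rank 101.

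**Figure D1:**
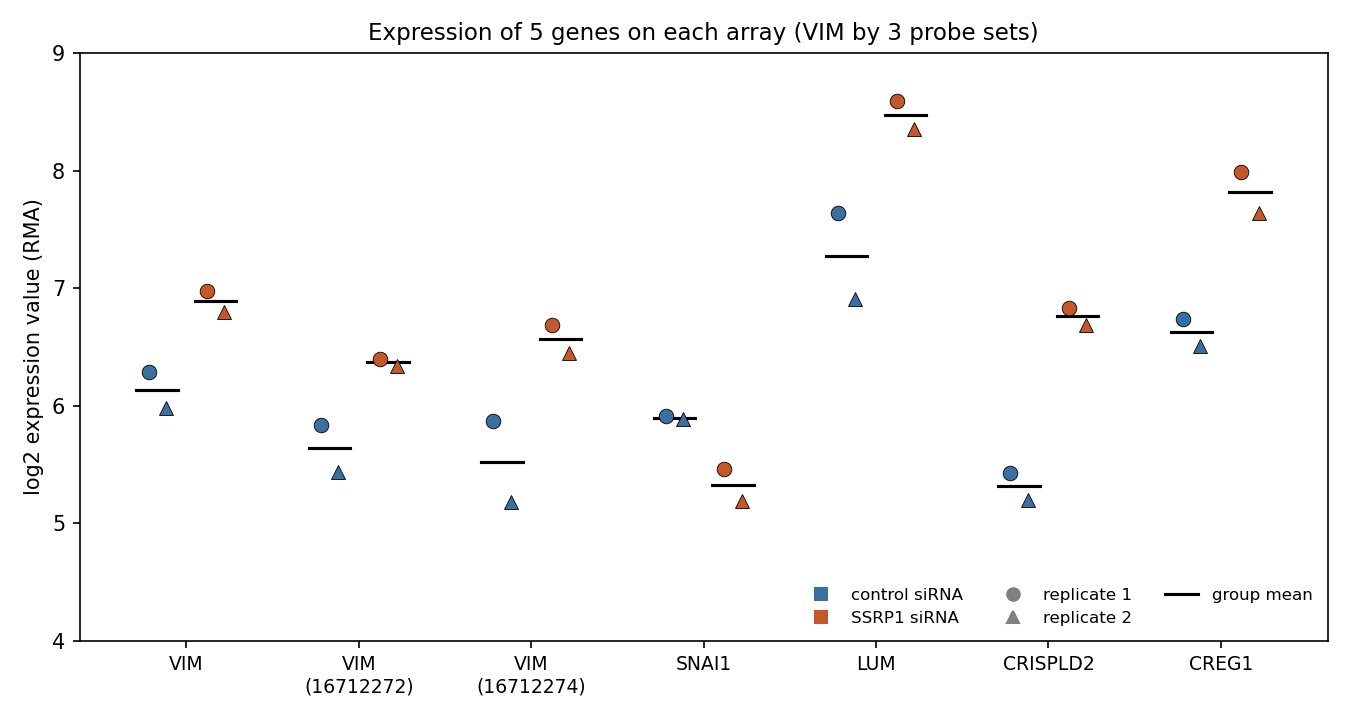
Log2 expression value (RMA) of the 5 genes on each of the 4 arrays; circles are replicate 1, triangles replicate 2, and bars the group means, and VIM is shown by its main probe set and its other 2. The SSRP1 siRNA arrays lie above the control arrays for VIM, LUM, CRISPLD2 and CREG1 and below them for SNAI1, and levels of different genes cannot be set against each other because each probe set has its own response.

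Set against all genes, 1 of the 5 (CRISPLD2) had a limma adjusted p under 0.05, where 0.0945% of all 14812 genes passed (12 higher, 0.081%, and 2 lower, 0.0135%). The groups were separate for 5 of 5 genes, as they were for 44.3% of all genes (21.8% higher, 22.5% lower). CRISPLD2 did not pass in 7 of 13 alternatives, with the replicate block, with robust variances, over all probe sets and without any 1 of the 4 arrays. Because the genes were chosen on this contrast, nothing is read from either count. In all 5 genes the array numbered 1 lay above the array numbered 2 in both groups, an arrangement that 27.6% of all genes had. The gap within groups was smaller than the difference between groups in each gene, the closest case being LUM, with 0.73 against 1.20. Choosing genes on this contrast favours such cases, so nothing is read from that either.

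The difference profiles were compared between the 5 genes by the root mean square difference of their log2 values over the 4 arrays, after each gene's own mean was subtracted. CREG1 and CRISPLD2 were the closest pair, at 0.153, followed by CREG1 and LUM at 0.179. VIM lay between 0.224 (CREG1) and 0.348 (CRISPLD2) from the other genes that were higher. SNAI1 was farthest from all of them, at 0.677 to 1.02, since its difference had the opposite sign.

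By the same measure, genes outside the 5 with the most similar profiles were named. Closest to VIM were ICAM2, an adhesion molecule of endothelial cells and platelets, at 0.0313, ANKRD50 at 0.0355 and MYO10, a myosin of filopodia, at 0.0356. ICAM2 read 8.44 and 8.17 with control siRNA and 9.22 and 9.03 with SSRP1 siRNA, a pattern that followed VIM array by array. Closest to SNAI1 were CRYBG3 (0.0189), STAR, the cholesterol carrier of steroid-producing cells (0.0221), and DPYD, an enzyme of pyrimidine breakdown (0.0283). All 3 were lower, by log2 differences of -0.56, -0.55 and -0.53.

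Closest to LUM were PDGFD, a platelet-derived growth factor (0.0541), TIMP3, a matrix-bound inhibitor of metalloproteinases (0.0681), and MYCT1 (0.0942). PDGFD shared the wide gap between the control arrays, with 5.38 and 4.69 against 6.32 and 5.99. TIMP3 was also among the 3 genes closest to CREG1 (0.121), behind the giant cadherin gene FAT4 (0.0531) and the receptor gene NOTCH1 (0.105). NOTCH1 (0.0967) stood again near CRISPLD2, with the G protein-coupled receptor genes GPR83 (0.0769) and NPY2R (0.104). Likeness was measured over 4 arrays, and any gene with a difference of the same size and sign is close by this measure.

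**Figure D2:**
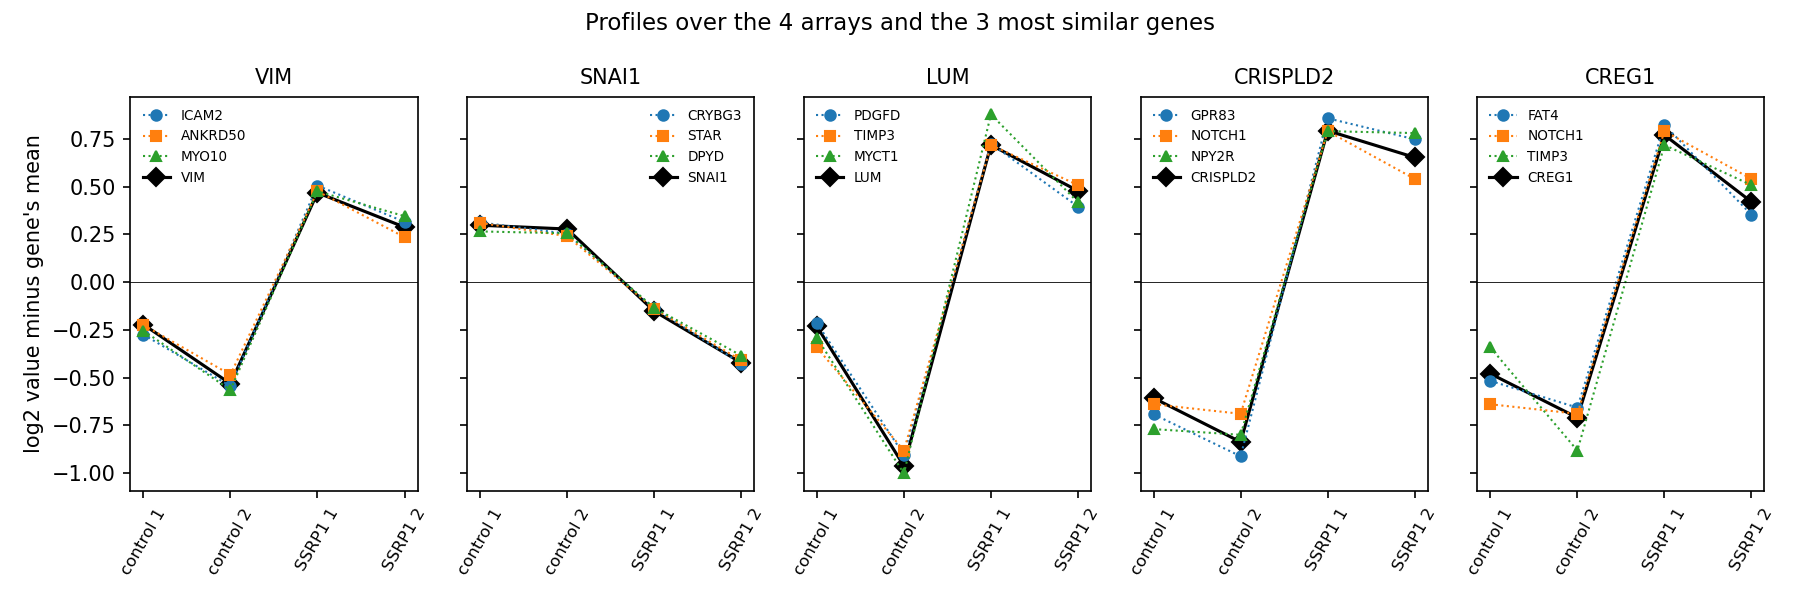
Log2 value on each array minus the gene's own mean over the 4 arrays, for each of the 5 genes (black diamonds) and the 3 genes with the smallest root mean square difference to it (coloured); lines join points of a gene to guide the eye only. The ICAM2 profile lies 0.0313 from that of VIM, and the control arrays of LUM and PDGFD stand apart in the same way.

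The genes around these 5 in function were compared as families. Over 176 measured genes in 11 lists of related function, without the 5 genes themselves, 0 passed the limma test over all genes, 14 were higher and 19 lower at an unadjusted p under 0.05, and the median difference was -0.018. Over all 14812 genes 12.6% had an unadjusted p under 0.05 (6.56% higher, 6.03% lower), 48.3% lay above 0, and the median difference was -0.0072. The counts of each list below are set beside these shares. The lists were chosen with earlier results of these data known, so nothing is read from a count above the share of all genes. With a variance trend in the limma prior 8 of the 176 passed, FBN1, TIMP3 and HEY1 higher and PRPH, LOXL1, SOX9, HAND2 and DBH lower, where 1.45% of all genes passed (0.965% higher, 0.486% lower). Without the genes below the median level 6 passed, all of these but SOX9 and HAND2, where 2.42% of the 7406 genes tested passed (1.58% higher, 0.837% lower).

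Other transcription factors of epithelial to mesenchymal transition were compared with SNAI1 first. Of 11 measured, 0 passed in either direction, 1 was higher at an unadjusted p under 0.05, 5 lay above 0, and the median was -0.069. The SNAI1 relatives SNAI2 (Slug) and SNAI3 had differences of -0.17 ± 0.11 and 0.15 ± 0.12 (SE, adjusted p = 0.588 and 0.661). SNAI2 read 8.77 on both control arrays and 8.69 and 8.52 with SSRP1 siRNA. The E-box repressor gene ZEB2 had the highest difference, 0.45 ± 0.12 (adjusted p = 0.271), and ZEB1 the lowest, -0.24 ± 0.10 (adjusted p = 0.423).

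Partners and targets of the SNAI1 protein were measured next. Of 14 corepressors and regulators of its stability, 0 passed, 1 was higher at an unadjusted p under 0.05 and 3 lay above 0. Their range was narrow, from -0.22 for AJUBA, an adaptor for SNAI1, to 0.29 for EZH2, the methyltransferase of Polycomb complex PRC2. SUZ12, also of PRC2, had a difference of -0.19, and FBXL14, a ubiquitin ligase subunit that targets SNAI1, one of 0.19. Of 18 epithelial junction genes known as SNAI1 targets or epithelial markers, 0 passed, 2 were higher and 1 lower at an unadjusted p under 0.05, and the median was -0.0065. The tight junction genes among them differed in both directions. TJP1, which encodes the scaffold ZO-1, had a difference of 0.63 ± 0.19 (adjusted p = 0.298), or 0.38 without SSRP1 replicate 1. CLDN1 had one of -0.50 ± 0.11 (adjusted p = 0.208) from a low level of 2.11, and OCLN one of -0.27 ± 0.16 (adjusted p = 0.555). CDH1, the classical SNAI1 target, was not analysed here.

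The other intermediate filament genes were compared with VIM. Of 13 measured, 0 passed and 2 were lower at an unadjusted p under 0.05, with a median of -0.099 and 4 above 0. PRPH, the peripheral neuron filament gene and a close relative of VIM, read 7.41 and 7.51 with control siRNA and 6.96 and 6.89 with SSRP1 siRNA, a difference of -0.54 ± 0.10 (SE, adjusted p = 0.17). PRPH passed with a variance trend (adjusted p = 0.0348) and without the dimmer genes (0.0398). NES, which encodes the progenitor filament protein nestin, had a difference of -0.55 ± 0.20 (adjusted p = 0.361), which was -0.26 without SSRP1 replicate 2 and -0.84 without SSRP1 replicate 1. The values of both lay below the controls on each SSRP1 siRNA array, opposite to VIM. KRT8, an epithelial keratin gene, had the highest difference, 0.40 ± 0.20 (adjusted p = 0.488), which came to 0.10 when control replicate 2 was left out and 0.69 when control replicate 1 was. KRT10 had a difference of 0.10. The type III relatives DES and GFAP had differences of -0.04 ± 0.24 and -0.01 ± 0.10 with overlapping groups, and both signs turned under other settings (DES with the mean of its probe sets, GFAP after quantile normalization or median centring). A second, dimmer DES probe set had group means of 4.03 and 4.34, a difference of 0.30 in the direction of VIM. Which of the DES probe sets reads the DES transcript better is not given in the sources used here. By number the main one, 16908817, lies near that of FN1 (16908037). The dimmer one, 16891261, lies near that of TWIST2 (16893143). They may therefore measure different strands, and the main one may not be the DES reading, so no direction is taken for DES. Among 11 genes of vimentin linkers and kinases 0 passed and 1 was lower at an unadjusted p under 0.05, the mitotic kinase gene AURKB, with -0.27 ± 0.10 (adjusted p = 0.366). The cytolinker gene PPL had a difference of -0.17, and SPECC1 and EPPK1 had differences of 0.16 and 0.15.

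The family of LUM was measured almost whole. Of 16 other small leucine-rich proteoglycan genes measured, 0 passed and 2 were lower at an unadjusted p under 0.05, with a median of -0.065 and 6 above 0. BGN, which encodes biglycan, read 11.04 and 10.95 in the controls and 10.67 and 10.45 after SSRP1 siRNA, a difference of -0.44 ± 0.12 (SE, adjusted p = 0.271). DCN, the decorin gene, was low in both groups, at 2.62 and 2.57, with a difference of -0.04 ± 0.11 whose sign turned without control replicate 1 or SSRP1 replicate 2. KERA, the keratocan gene, read 1.92 and 2.00 against 1.54 and 1.77, a difference of -0.31 ± 0.12 (adjusted p = 0.387), or -0.19 with SSRP1 replicate 1 left out. PODN and ASPN had the highest differences, 0.26 and 0.22.

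Genes of matrix assembly and crosslinking spanned the widest range of differences of the 11 lists, from -0.80 to 1.94. Of 24 measured, 0 passed, 2 were higher and 6 lower at an unadjusted p under 0.05, and the median was -0.11 with 9 above 0. Over all genes 6.56% were higher and 6.03% lower at that limma threshold, and 48.3% lay above 0. FBN1, which encodes the microfibril protein fibrillin-1, read 4.06 and 3.50 with control siRNA and 5.80 and 5.65 with SSRP1 siRNA. That is a difference of 1.94 ± 0.20 (SE), larger than for any of the 5 genes, with an adjusted p of 0.0556. FBN1 passed after quantile normalization (adjusted p = 0.0337), after median centring (0.049), with a variance trend (0.00681) and without the dimmer genes (0.00839), and over all 12 alternatives its adjusted p ran from 0.00681 to 0.599.

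TIMP3 read 8.16 and 7.62 with control siRNA and 9.22 and 9.01 with SSRP1 siRNA, a difference of 1.22 ± 0.20 (SE, adjusted p = 0.128). A second, much dimmer TIMP3 probe set had group means of 3.38 and 4.48, a difference of 1.10. Which part or strand of the locus it measures is not given in the sources used here. By number this probe set, 16934302, lies near that of SOX10 (16934881), and the main one, 16929442, near that of MAFF (16930051). It may therefore measure the other strand, and its value is not taken as a repeat reading of TIMP3. The lysyl oxidase family genes LOXL1 and LOXL3, whose products crosslink elastin and collagen, were on the other side of 0. LOXL1 read 7.25 and 7.15 against 6.46 and 6.33, a difference of -0.80 ± 0.11 (adjusted p = 0.103), and LOXL3 had a difference of -0.65 ± 0.23 (adjusted p = 0.353), which came to -0.35 when control replicate 1 was left out and -0.94 when control replicate 2 was. TIMP3 and LOXL1 passed with a variance trend (adjusted p = 0.0214 and 0.0129) and without the dimmer genes (0.0288 and 0.0163). FBN1 and TIMP3 were the 2 genes of this list above 2-fold.

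The relatives of CRISPLD2 and CREG1 had differences of at most 0.57 in size. Of 11 other genes with CAP or LCCL domains, 0 passed and 1 was higher at an unadjusted p under 0.05, with 7 above 0 and a median of 0.056. That gene, GLIPR1, a CAP family member, had a difference of 0.57 ± 0.17 (SE, adjusted p = 0.306), or 0.37 with control replicate 2 left out. CRISPLD1, the nearest relative of CRISPLD2, read 6.52 and 6.53 with control siRNA and 6.71 and 6.73 with SSRP1 siRNA, a difference of 0.20 ± 0.10 (adjusted p = 0.487). The sperm-linked genes CRISP1 and CRISP3 had differences of -0.08 and -0.06, that of CRISP3 turning sign without control replicate 1 or SSRP1 replicate 1.

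Of 18 other genes of the CREG family and of lysosomal proteins, 0 passed, 3 were higher and 1 lower at an unadjusted p under 0.05, 13 lay above 0, and the median was 0.092. The protease gene CTSB and the channel gene MCOLN1 had the highest differences, 0.37 ± 0.11 and 0.36 ± 0.10 (SE, adjusted p = 0.281 and 0.274). CREG2, the paralog of CREG1, lay on the other side, with 3.45 and 3.65 against 3.14 and 3.31, a difference of -0.32 ± 0.12 (adjusted p = 0.381). The protease gene CTSK had a difference of -0.21 ± 0.19, with overlapping groups.

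**Figure D3:**
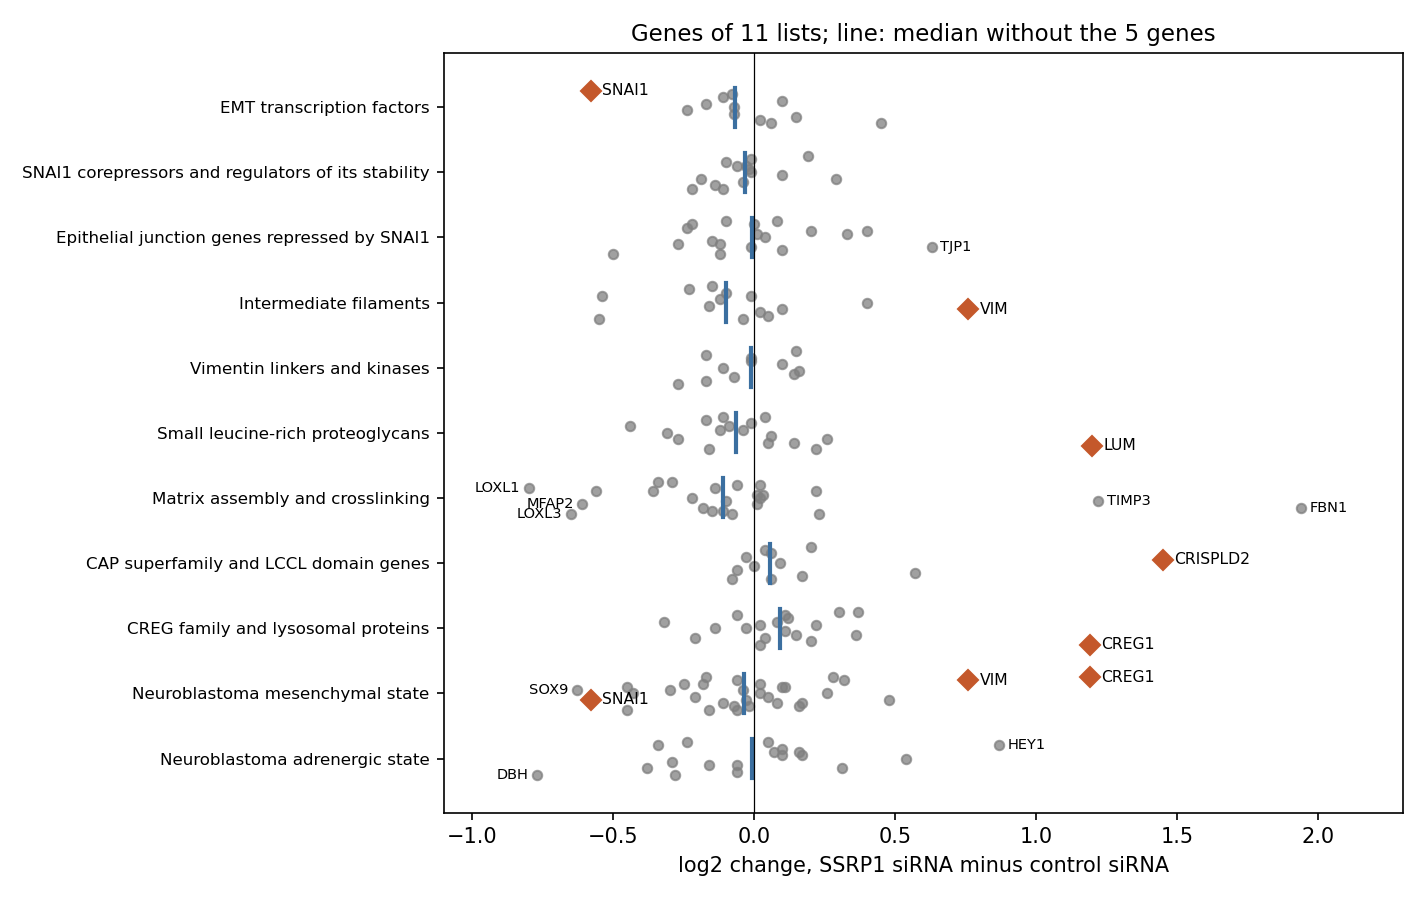
Log2 difference, SSRP1 siRNA minus control siRNA, of each measured gene in 11 functional lists; diamonds are the 5 genes, circles the others, vertical bars the list medians without the 5 genes, and names are given for circles at 0.6 or more in size. The medians lie between -0.11 and 0.092, and FBN1 (1.94) and TIMP3 (1.22) are the 2 circles above 1.

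VIM, CREG1 and SNAI1 were also read as members of the neuroblastoma cell state lists. Of 29 other mesenchymal state genes measured, 0 passed, 1 was higher and 3 lower at an unadjusted p under 0.05, and the median was -0.036 with 12 above 0. SOX9, a neural crest transcription factor gene, had a difference of -0.63 ± 0.13 (SE, adjusted p = 0.187) and AEBP1 one of -0.45 ± 0.13 (adjusted p = 0.271), against 0.48 ± 0.15 for MAFF (adjusted p = 0.311) and 0.32 ± 0.14 for EGR3 (adjusted p = 0.423), both transcription factor genes. They came to 0.29 for MAFF with SSRP1 replicate 2 left out and 0.19 for EGR3 with control replicate 1 left out. Of 18 adrenergic state genes 0 passed, 3 were higher and 3 lower at an unadjusted p under 0.05, and the median was -0.0061. DBH, the enzyme that makes noradrenaline, had a difference of -0.77 ± 0.11 (adjusted p = 0.111) and the transcription factor gene HAND2 one of -0.38 ± 0.10 (adjusted p = 0.263). HEY1 and INSM1, both transcription factor genes, had differences of 0.87 ± 0.13 and 0.54 ± 0.12 (adjusted p = 0.113 and 0.195).

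Markers of other cell types were set beside the higher levels of LUM and VIM. In bulk RNA a change in the number of cells of a type and a change in RNA per cell cannot be told apart. Of 13 fibroblast and stroma markers 6 were measured, LUM among them, and the mean log2 level of the other 5 was 4.45 and 4.38 in the controls and 4.42 and 4.45 after SSRP1 siRNA. These 5 markers differed by -0.29 (FBLN1) to 0.25 (THY1), and 0 passed. Of 8 pericyte and smooth muscle markers 4 were measured, with means of 5.06 and 5.15 against 5.0 and 5.10. Of 10 Schwann and glial markers 5 were measured, with means of 4.70 and 4.66 against 4.84 and 4.77 and the highest difference, 0.47, for S100B. Of 10 endothelial and blood markers 5 were measured, with means of 3.85 and 3.80 against 3.79 and 3.76. The 9 neuroblastoma markers had means of 8.70 and 8.67 against 8.43 and 8.51, with a median difference of -0.24 and 0 past the test. Their differences ran from -0.77 for DBH to 0.34 for CHGA, the 1 of 9 above 0. Their part in the differences of the 5 genes was not tested.

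The nearest measured genes on the chromosome were compared with the 5. Genes without a named probe set were passed over, so a gene directly beside one of the 5 may be missing. The 5 were chosen on this contrast and their neighbours were not, so larger differences in the 5 follow from the choice. Of the 20 nearest measured genes, 2 on either side in RefSeq order, 0 passed the limma test, 4 had an unadjusted p under 0.05, 10 lay above 0, and the differences ran from -0.32 to 0.30. Over all genes 0.0945% passed, 12.6% had an unadjusted limma p under 0.05 and 48.3% lay above 0. Beside VIM, the nearest measured genes TRDMT1 and ST8SIA6-AS1 had differences of -0.09 and 0.02, and CUBN and STAM had differences of 0.30 and 0.01. CUBN and ST8SIA6-AS1 were dim, with control means of 2.55 and 2.22 against a median level of 4.64 over all genes. LUM lies in a row of proteoglycan genes with EPYC, KERA and DCN. These had differences of 0.14, -0.31 and -0.04 while LUM had one of 1.20, and PLEKHG7 beyond DCN had one of 0.20. The control means of EPYC, KERA, DCN and PLEKHG7 were low, at 2.29, 1.96, 2.62 and 2.73. Differences of genes this dim are compressed, so little can be read from the contrast with LUM. Beside CRISPLD2, KLHL36 and KIAA0513 had differences of 0.01 and -0.09, and COTL1 and LINC02139 had differences of 0.12 and 0.06. Beside CREG1, CD247 and RCSD1 had differences of -0.25 and -0.32, opposite in sign to CREG1, and STYXL2 and ADCY10 had differences of -0.19 and 0.04. All of these were dim as well, with control means of 3.57, 2.97, 2.98 and 2.12 in that order. Beside SNAI1, RNF114 and the noncoding gene TRERNA1 had differences of 0.02 and -0.08, and PTGIS and UBE2V1 had differences of -0.29 and -0.04. The control means of TRERNA1 and PTGIS were 3.29 and 3.56.

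**Figure D4:**
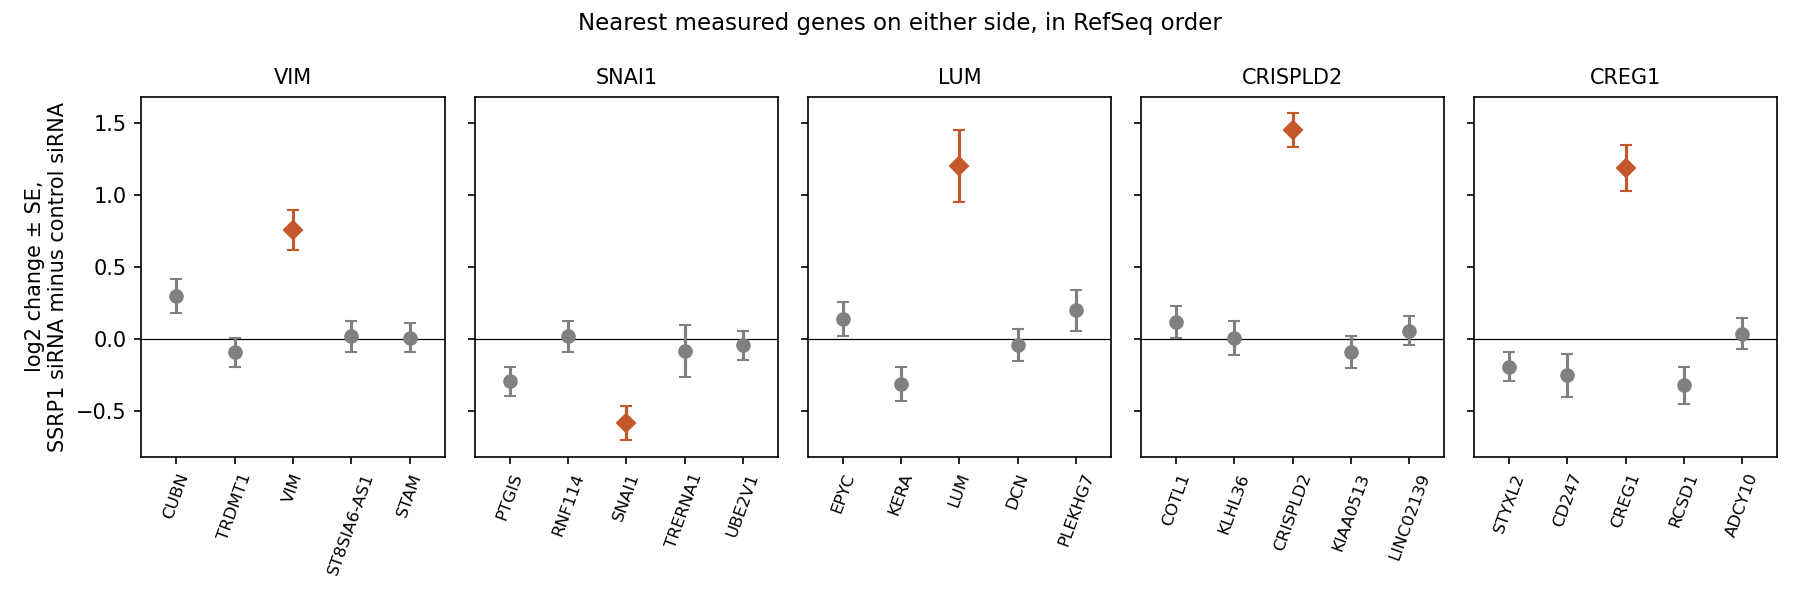
Log2 difference ± SE, SSRP1 siRNA minus control siRNA, of each of the 5 genes (diamonds) and of the nearest 2 measured genes on either side in RefSeq order (circles). All 20 circles lie between -0.32 and 0.30, while the diamonds lie at -0.58 and between 0.76 and 1.45. The diamonds were chosen on this contrast and the circles were not, so nothing is read from their separation.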

How the data were processed

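RNA of 4 BE(2)C samples was measured on 4 arrays. The deposited table holds log2 values of probe sets. The authors used RMA, according to the submitters' processing notes; the log2 scale was inferred from the range (0.502 to 12.8). RMA as usually run equalises the arrays' distributions, so a shift of all transcripts would not be visible, and differences of dim genes are compressed. No detection values were used. Of 46255 probe sets 15835 had 1 symbol, 0 several and 30420 none; all gene IDs were found in RefSeq (GRCh38.p14). The genes' coordinates are not given because the annotation's build is not stated.

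Groups came from the titles. The test was limma 3.58.1 in R 4.3.3 (lmFit and eBayes, no trend, not robust), all 4 arrays, Benjamini-Hochberg over 14812 genes, adjusted p under 0.05, with 2 residual and 3.79 prior degrees of freedom. The code was run on simulated data that followed the model's own assumptions. That checks the code, and not how well the model holds for these arrays. Alternatives were a replicate block, a variance trend, robust variances, quantile normalization, median centring, averaging all probe sets of a gene, leaving out genes below the median level, all probe sets, each array left out, and an adjusted p under 0.1.

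The 5 genes and the lists were chosen with earlier results of these data known. By rule the text names the target, close relatives, each list's 2 highest and 2 lowest genes and any past the test, the 3 most similar genes and the 2 nearest genes on either side. The cell type markers named in the text were chosen after their values were seen.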

Additional observations from a re-analysis of the deposited data

How the results depend on the processing

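The direction of the 5 genes' differences was fixed by how they were chosen, and 5 of the 12 alternatives (the replicate block, a variance trend, robust variances, a filter on dim genes and all probe sets) leave these differences as they are by construction. Over the rest the size ranged from 0.60 to 0.91 for VIM, 1.01 to 1.36 for CREG1, -0.71 to -0.45 for SNAI1, 0.83 to 1.56 for LUM and 1.34 to 1.57 for CRISPLD2. The 14 genes past the limma test became 6 with the replicate block, 9 with robust variances, 215 with a variance trend in the prior, 28 after quantile normalization, 23 after median centring, 179 without genes below the median level, 41 at an adjusted p under 0.1 and 0 over all probe sets (smallest adjusted p 0.0783); without any 1 array the count was 0 in each case, with 1 residual degree of freedom. The split between higher and lower moved with the scaling, with 12 of 14 higher in the main setting, 19 of 28 under quantile normalization and 17 of 23 under median centring. The 0 genes of the lists past the test became 8 with a variance trend, 6 without genes below the median level, 1 after quantile normalization, 1 after median centring and 1 at an adjusted p under 0.1, FBN1 being the gene in each case of 1. The SSRP1 difference of -1.95 had an adjusted p of 0.0569 with the replicate block, 0.0512 with robust variances and 0.144 over all probe sets, and without any 1 array it ran from -2.17 to -1.72 with adjusted p between 0.241 and 0.599. The cause of these changes was not tested. The correlation of same-numbered arrays' deviations from their group means was 0.114 over 14812 genes; with 2 pairs this does not show that the numbers pair the samples. Of 100 other genes, those named in the text and every measured cell type marker, 25 turned sign somewhere, with differences of at most 0.22 in size. DES was 0.13 with the mean of its probe sets, GFAP 0.01 after quantile normalization and 0.02 after median centring, STAM -0.001 and KLHL36 -0.0025 after quantile normalization. After quantile normalization and median centring respectively, PDPN was 0.02 and 0.01, TAGLN 0.01 and 0.0016, and NGFR 0.01 and 0.01, and after median centring CHGB was 0.01 and RGS5 0.02. With 1 array left out the values of these 25 genes ran from -0.01 to 0.21 for KRT10, -0.20 to 0.08 for CRISP3, -0.44 to 0.02 for CTSK, -0.35 to 0.26 for DES, -0.04 to 0.03 for GFAP, -0.11 to 0.03 for DCN, -0.04 to 0.08 for ST8SIA6-AS1, -0.02 to 0.04 for STAM, -0.02 to 0.10 for ADCY10, -0.03 to 0.07 for RNF114, -0.29 to 0.13 for TRERNA1, -0.11 to 0.02 for UBE2V1, -0.08 to 0.10 for KLHL36, -0.01 to 0.12 for LINC02139, -0.27 to 0.14 for ISL1, -0.09 to 0.06 for CHGB, -0.14 to 0.11 for PDPN, -0.07 to 0.03 for TAGLN, -0.05 to 0.04 for RGS5, -0.05 to 0.13 for SOX10, -0.06 to 0.29 for ERBB3, -0.13 to 0.12 for NGFR, -0.12 to 0.01 for VWF, -0.01 to 0.19 for KDR and -0.04 to 0.47 for CD14.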
